A study of Drosophila melanogaster with 5 samples.

Results

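Axons are held in shape by bundled microtubules and by a lattice of spectrin and actin under the membrane. Microtubule-associated proteins bind and stabilize the microtubule bundles, spectraplakins tie microtubules to actin, spectrins form the long flexible tetramers of the membrane lattice, and ankyrins fasten that lattice to proteins in the membrane. In Drosophila, loss of several of these proteins disturbs axon growth or makes larval synapses retract. The genes described here are 10 such genes, chosen by symbol and function: the microtubule-associated genes futsch, tau, Map205 and chb, the spectraplakin gene shot, the spectrin genes alpha-Spec, beta-Spec and kst, and the ankyrin genes Ank and Ank2. All 10 were found by symbol among the 16463 genes that the FPKM and the count table share, and all 10 were among the 10968 genes that passed a minimum level (a mean of at least 1 FPKM and of at least 10 normalized counts over the groups).

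The study asked which transcripts of the CNS depend on the inositol trisphosphate receptor (IP3R), a Ca2+ release channel of the endoplasmic reticulum, and compared larvae of the third instar in which it was knocked down with controls. The IP3R knockdown group (2 libraries) carried ElavC155GAL4, a pan-neuronal driver, over a wild-type chromosome, together with 1 copy each of UAS-dsitpr, which encodes the RNAi hairpin, and of UAS-dicer. The control group (3 libraries) carried the UAS transgenes alone. Each library came from about 15 pooled CNS taken 84 h after egg laying, so a library is a pool of animals and not a single animal. The methods of the study name VGN6341-GAL4, a driver of a subset of glutamatergic neurons, for the same samples. The sample labels, and a figure legend of the study for the knockdown FPKM values, name the elav driver ElavC155GAL4. RNAi, the driver and expressed Dicer-2 go together in these groups and cannot be told apart.

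The deposited tables hold 1 value per gene and group, either FPKM (fragments per kilobase of transcript, scaled to the number of mapped reads) or the mean normalized count. The spread between libraries could not be computed from them, and no difference below carries a test. A ratio is always that of knockdown to control. A gene is called lower here when its value was at least 25% below control in both tables, and higher when it was at least 25% above control in both, which follows the study's minimum change. Both tables were made from the same reads and are not independent. Summed over genes, the mean normalized counts came to 11.9 M in the knockdown group and 12.7 M in the control group. Transcripts of the targeted gene, listed as Itp-r83A, stood at 15.0 FPKM in the knockdown group and 24.7 FPKM in the control group, and those of Dcr-2, which the dicer transgene encodes, at 96.7 FPKM in the knockdown group and 31.3 FPKM in the control group. The log2 ratio of Itp-r83A in normalized counts was -0.61, and the gene has 10331 bases of annotated exon. Among 217 genes with 8245 to 10465 such bases, the median was -0.54 and 60.8% were lower. Whether the drop of Itp-r83A exceeded that of genes of its length was not tested. Neuronal markers such as elav (40.5 FPKM in knockdown, 69.0 FPKM in control) and nSyb (146 FPKM in knockdown, 157 FPKM in control) were abundant. Markers of glia and neuroblasts were present too, so these are whole-tissue values, in which fewer cells of a type and less RNA per cell cannot be told apart.

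In the knockdown CNS, futsch, kst and shot were lower, with ratios between 0.43 and 0.53, and the other 7 genes lay within 25% of control in at least 1 table. None of the 10 was higher. Among all genes past the minimum level, 14.2% were lower and 11.4% higher by the same rule. The median log2 ratio of the 10 genes was -0.35 in normalized counts, beside 0.04 for all genes, and it turned to 0.08 after subtraction of the median ratio of genes in the same decile of exon length. Of the 10 genes, 8 had ratios below 1 in both tables, Ank had ratios above 1 in both, and tau lay on either side of 1.

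**Figure D1:**
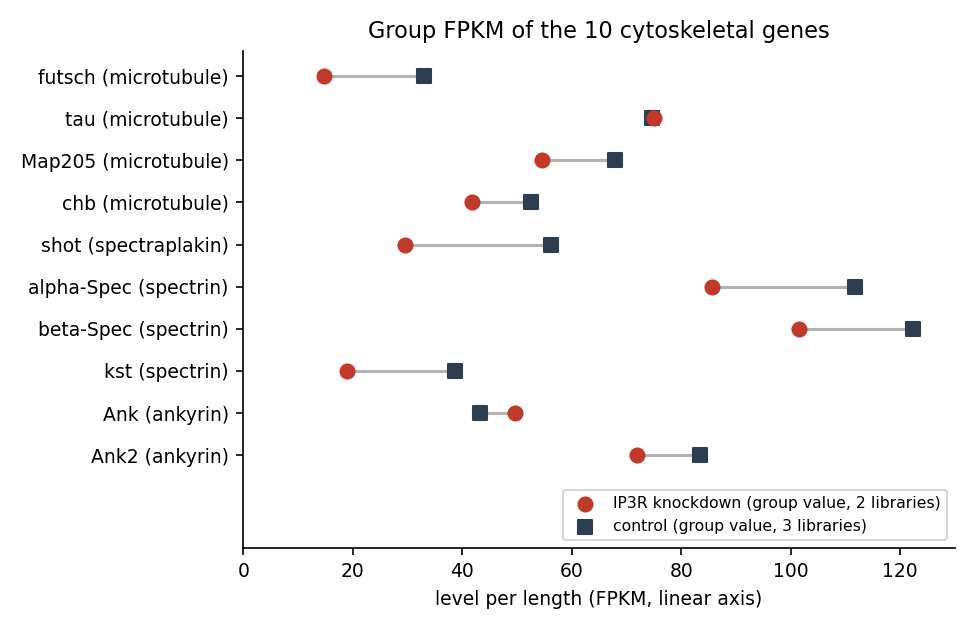
FPKM of each gene (linear x axis) in the IP3R knockdown group (red circles, 2 libraries pooled) and the control group (dark squares, 3 libraries pooled), as the authors' group values without error bars. The widest gaps relative to the level are those of futsch (14.7 FPKM in knockdown against 33.0 in control), kst (19.0 in knockdown against 38.7 in control) and shot (29.5 in knockdown against 56.2 in control), and Ank has the higher value in the knockdown group (49.7 in knockdown against 43.3 in control).

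Among the microtubule-associated genes, the knockdown value was well below that of control for futsch only. This gene encodes the fly relative of vertebrate MAP1B, which runs along axons and into the synaptic boutons of motor neurons. Its FPKM was 14.7 in the knockdown group and 33.0 in the control group, and its mean normalized count was 3272 in the knockdown group and 7687 in the control group. The log2 ratio was -1.23 in normalized counts and -1.17 in FPKM, so 42.6% of the control count and 44.5% of the control FPKM were left. It had the lowest FPKM of the 10 genes in both groups. The gene lies on the X chromosome from 1409069 to 1453686 on the plus strand (dm6, Ensembl annotation, as for the places and transcripts of the other genes). All 3 annotated transcripts share 1 exon of 13820 bases, which makes up 59.3% of the exon sequence, and every one encodes a protein of 5495 residues. An exon of the gustatory receptor gene Gr2a covers 1186 bases (5.09%) of its exons, and whether the authors counted reads by strand is not given in the sources used here.

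The transcripts of tau, whose product binds the microtubule lattice and whose human relative is known from neurodegenerative disease, stood at 75.1 FPKM in the knockdown group and 74.8 FPKM in the control group. In normalized counts the knockdown group had 1503 and the control group 1530, a log2 ratio of -0.03. These differences amount to 0.390% in FPKM and -1.79% in counts, and the sign depends on the table. Because futsch was lower and tau was not, the FPKM of tau was 5.12 times that of futsch in the knockdown group and 2.27 times in the control group. The futsch gene has more exon sequence than tau, and median ratios were lowest among the longest genes, as described below. The gene lies on chromosome 3R from 27639886 to 27656996 on the minus strand. Its 14 annotated transcripts are short, between 1343 and 3754 bases.

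Map205 encodes a microtubule-binding protein that also binds the mitotic kinase Polo, and chb encodes the fly CLASP, a protein of growing microtubule ends in spindles and axons. Map205 had 54.6 FPKM and 2780 normalized counts in the knockdown group, against 67.9 FPKM and 3348 normalized counts in the control group. For chb the values were 41.8 FPKM and 2516 normalized counts in the knockdown group, against 52.5 FPKM and 3168 normalized counts in the control group. Both genes stayed inside the 25% rule. The log2 ratio of Map205 was -0.27 in counts and -0.31 in FPKM, and that of chb -0.33 in either. Map205 lies on chromosome 3R (32055279 to 32068441, minus strand) and chb on 3L (21172853 to 21183278, plus strand).

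The spectraplakin gene shot was lower. Its product is a giant linker that binds actin at one end and microtubules at the other, and its mutants have short axons with disordered microtubules. It had 29.5 FPKM in the knockdown group and 56.2 FPKM in the control group, and 5402 normalized counts in the knockdown group against 10232 in the control group. The log2 ratio was -0.92 in counts and -0.93 in FPKM. In the order of FPKM among the 10 genes, shot held place 8 in the knockdown group and place 6 in the control group. It lies on chromosome 2R from 13864237 to 13942110 on the minus strand, with 22 annotated transcripts of 13661 to 27842 bases that encode proteins of 4100 to 8805 residues. None of its exon sequence is shared with another annotated gene.

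The spectrin genes did not have equal ratios. The alpha-Spec product pairs with either of a pair of beta chains, the conventional one from beta-Spec or the heavy one from kst (karst), which in epithelia sits on the apical side. For kst, FPKM was 19.0 in the knockdown group and 38.7 in the control group, with 2871 normalized counts in the knockdown group and 5962 in the control group. Its log2 ratio was -1.05 in counts and -1.03 in FPKM, which placed it among the lower genes. The conventional chains lay inside the 25% rule. For alpha-Spec, FPKM was 85.6 in the knockdown group and 112 in the control group, with 8262 normalized counts in the knockdown group and 10611 in the control group (log2 ratio -0.36 in counts and -0.39 in FPKM). For beta-Spec, FPKM was 102 in the knockdown group and 122 in the control group, with 9434 normalized counts in the knockdown group and 11200 in the control group (log2 ratio -0.25 in counts and -0.27 in FPKM).

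Per length, the heavy beta chain was thus a smaller part of the beta spectrin transcripts in the knockdown group: kst reached 0.187 of the FPKM of beta-Spec there and 0.316 in the control group. The median log2 FPKM ratio was -0.62 for genes of the exon length of kst (10480 to 69810 bases). For those of the length of beta-Spec (7023 to 8230 bases) it was -0.45. The part of length in the lower share of kst was not tested. The FPKM of alpha-Spec relative to the summed FPKM of both beta genes was 0.710 in the knockdown group and 0.694 in the control group. The alpha-Spec gene lies on chromosome 3L (1778485 to 1795328, minus strand), beta-Spec on X (17657372 to 17669371, plus strand) and kst on 3L (3336860 to 3368133, plus strand). Their longest annotated proteins have 2457, 2308 and 4337 residues, in this order. Among the reads kept after duplicate removal, in which the study lost most of its reads, the transcripts of beta-Spec and alpha-Spec had the most. Of the 10968 genes, beta-Spec had the highest and alpha-Spec the second highest mean normalized count, which is a count of reads and not a level per length. By FPKM they ranked 1245 and 1713. After removal of duplicate reads by the authors, the control group held 1418 normalized counts per kilobase of exon for beta-Spec and 1271 for alpha-Spec, whereas the median over genes was 415 and the 99th percentile 1584. Whether duplicate removal made the ratios of such densely read genes smaller, or changed their rank by count, was not tested.

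The ankyrin genes differed in sign. Ank encodes the broadly expressed ankyrin, and Ank2 the neuronal one, whose giant isoforms reach along axons and hold the microtubules of motor nerve terminals. Ank had 49.7 FPKM and 2951 normalized counts in the knockdown group, against 43.3 FPKM and 2606 normalized counts in the control group. Its log2 ratio was 0.18 in counts and 0.20 in FPKM, inside the 25% rule. Ank2 had 71.9 FPKM in the knockdown group and 83.4 FPKM in the control group, a ratio of 0.862. In normalized counts it had 6841 in the knockdown group and 9150 in the control group, a ratio of 0.748, which is just past the rule. In the count table alone, 15.4% of all genes were lower, and Ank2 was the only one of the 10 genes that the FPKM and count tables placed on different sides of the rule. The FPKM of Ank relative to that of Ank2 was 0.691 in the knockdown group and 0.519 in the control group. Ank lies on chromosome 4 (115074 to 129849, minus strand) and Ank2 on 3L (7655389 to 7718395, minus strand).

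**Figure D2:**
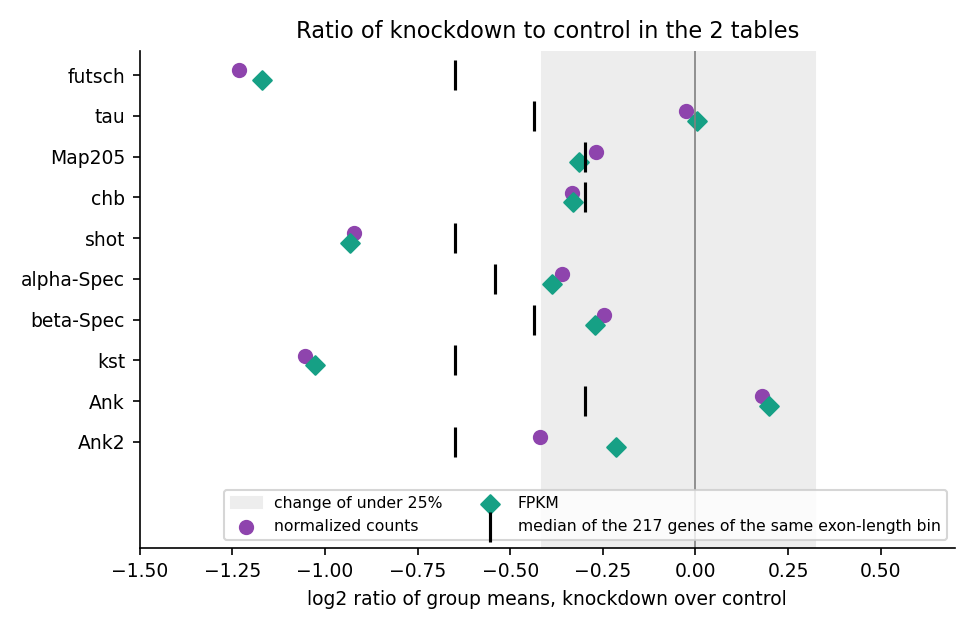
Log2 ratio of knockdown to control (x axis) for each gene, from normalized counts (purple circles) and from FPKM (green diamonds), with the zone of a change of under 25% in gray. The vertical ticks mark the median count ratio of the genes in the same fiftieth of exon length. The values of futsch, kst and shot lie left of the gray zone and of their ticks. Those of Ank, tau, Ank2, alpha-Spec and beta-Spec lie right of their ticks, and Ank2 is the gene with a visible gap between the tables.

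The 10 genes share a feature that the choice by name did not use: all have much annotated exon sequence. Exon length, counted as all bases that the annotated exons of a gene cover, ran from 6046 bases for Map205 to 46969 bases for Ank2, beside a median of 1932 bases over all genes. All 10 genes therefore fell in the longest decile of genes, which holds 1085 genes with at least 5597 bases of exon. In that decile the median log2 ratio was -0.43, 48.2% of the genes were lower and 1.2% were higher. The count of 3 lower genes among 10 therefore did not exceed the background of genes of this length. Of the 1085 genes, 32 had a smaller count ratio than futsch, 62 than kst and 98 than shot. By contrast, 1054 had a smaller ratio than Ank and 998 than tau.

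Within the longest decile, ratio and length went together. The 4 longest genes of the group, Ank2, shot, futsch and kst, lay in the longest fiftieth of all genes (10480 to 69810 bases), where the median log2 ratio was -0.65 and 66.4% of genes were lower. Relative to that median, the log2 ratios of futsch, kst and shot were lower by 0.58, 0.41 and 0.27, and that of Ank2 was higher by 0.23. The 6 shorter genes lay in fiftieths with medians of -0.54 to -0.30. The log2 ratios of Map205 and chb differed from the median of their own fiftieth by 0.03 and -0.03. Those of alpha-Spec and beta-Spec were above it by 0.18 and 0.19, and those of tau and Ank by 0.41 and 0.48. The trend of the median ratio with length was seen over all genes. The share of lower genes did not rise steadily: it was 17.1% in decile 1, the shortest, and 5.99% in decile 8. Whether the length trend arose in the animals, in the RNA or in the libraries was not tested.

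**Figure D3:**
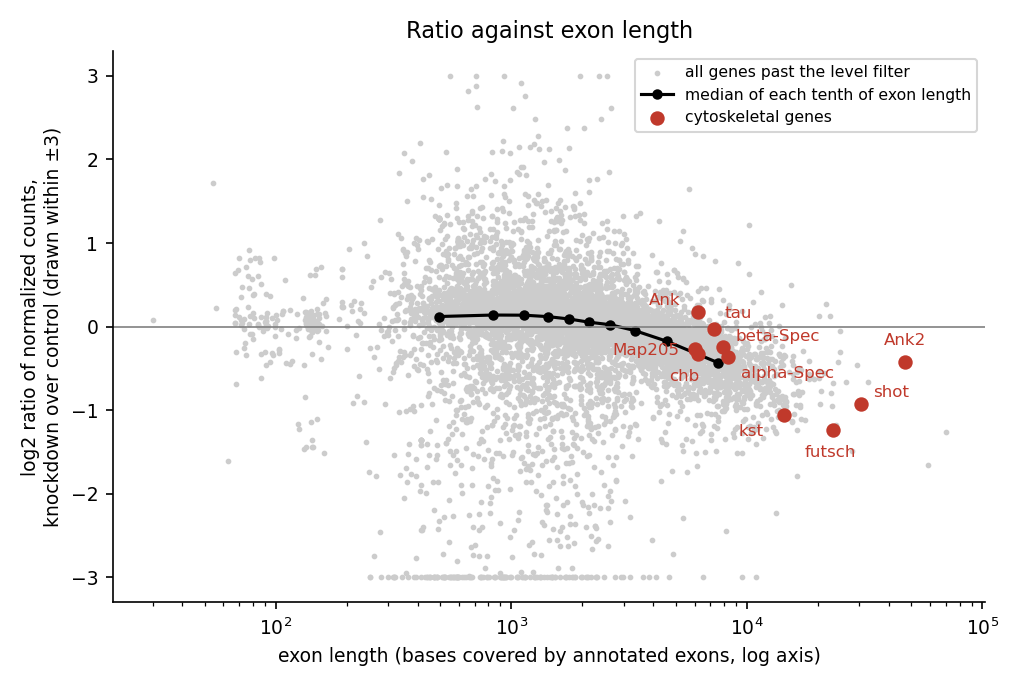
Log2 ratio of normalized counts, knockdown over control (y axis, values beyond 3 drawn at the edge), against exon length (log x axis) for the genes past the minimum level (gray), with the median of each decile of exon length as a black line and the 10 cytoskeletal genes in red. The medians run from 0.12 in the shortest decile to -0.43 in the longest, and all red points lie at the long end. The points of futsch, kst and shot lie below the median of the longest decile. The other red points lie above it, with Ank and tau the highest.

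Ank2 was the longest gene of the group and yet had a ratio near that of genes a fraction of its length. Its 22 annotated transcripts range from 2261 to 42128 bases, and 1 exon of 27690 bases, found in only 2 of them, makes up 59.0% of the exon sequence. The gene CG44195 covers 5874 bases (12.5%) of its exons. A count grows with transcript length and FPKM does not, so their quotient gives a rough measure of length. Normalized counts divided by FPKM and by the summed counts in M gave this apparent length, which over all genes had a median of 82.7% of exon length. It is no measured transcript length: for 10.9% of genes it exceeded all annotated exon sequence, and it reached 129.6 kb where the longest exon sequence was 69.8 kb. For Ank2 the apparent length was 8.34 kb, or 17.8% of its exon length. For tau it was 1.64 kb (22.6%) and for shot 14.8 kb (48.6%). For the other 7 genes it was 67.0% to 94.5% of exon length, with futsch at 18.6 kb and kst at 12.4 kb. None of the 10 genes exceeded its exon length. The apparent length depends on how the authors' software counted and assigned reads in each table, and it shares its counts and FPKM with the ratios.

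By apparent length, the 3 longest genes were the 3 lower ones. Ank2, alpha-Spec and beta-Spec followed, at 8.34, 7.75 and 7.46 kb with log2 count ratios of -0.42, -0.36 and -0.25. chb, Ank and Map205 came next at 4.88, 4.84 and 4.05 kb, and tau was last. Across the 10 genes, Spearman's rho between the log2 count ratio and apparent length was -0.90 (Pearson's r = -0.83 on log2 length), and between that ratio and exon length -0.71 (r = -0.64). With the FPKM ratio in place of the count ratio, rho was -0.77 for apparent length and -0.39 for exon length (r = -0.81 and -0.53). By r, the weaker relation to exon length rested on Ank2. By rho, exon length stayed the weaker with Ank2 left out, and its rho with the count ratio hardly changed. Without Ank2, exon length gave rho = -0.70 and r = -0.87 with the count ratio, and rho = -0.70 and r = -0.86 with the FPKM ratio. Apparent length then gave rho = -0.87 with either, and r = -0.84 and -0.85. These values describe 10 chosen genes and are not a test. Over 10850 genes, rho was -0.42 for apparent length and -0.43 for exon length, values that lie close together. On log2 length, r with the count ratio was only -0.08 and -0.11 over these genes, in the same order.

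**Figure D4:**
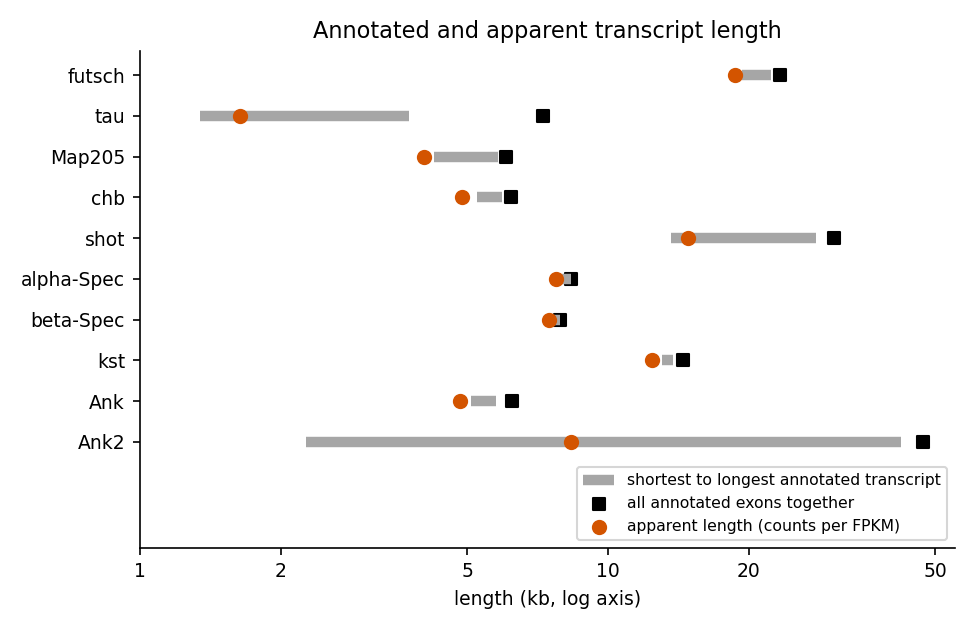
Lengths of the 10 genes in kb (log x axis): the range of annotated transcripts (gray bars), all annotated exons together (black squares) and the apparent length from counts and FPKM (orange circles). The apparent length lies near the annotated transcripts for most genes, and far below the full exon length for Ank2 (8.34 against 47.0 kb) and tau (1.64 against 7.25 kb).

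Other genes of the microtubule system were listed by function. Of 15 such genes with values (2 of 17 listed symbols were not matched), 1 was lower and none was higher, with a median log2 count ratio of 0.01. The lowest ratios were those of Patronin, which caps microtubule minus ends (43.4 FPKM in knockdown, 59.96 FPKM in control, log2 count ratio -0.50, the 1 lower gene), and of msps, a microtubule polymerase (-0.38). The highest were those of Eb1, the plus-end binding protein that recruits Shot (119 FPKM in knockdown, 106 FPKM in control, log2 count ratio 0.18), and stai, the stathmin gene (0.11). These genes had a median exon length of 3929 bases, and Patronin was the 1 lower gene among the 6 of them in the longest decile. By the same rule, 14.2% of all genes and 48.2% of the longest decile were lower.

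Of 14 genes for membrane and actin partners of spectrin and ankyrin and for other proteins with spectrin repeats, 3 were lower and none was higher, with a median log2 count ratio of -0.26. Msp300, the giant nesprin that anchors nuclei, had the lowest ratio (17.7 FPKM in knockdown, 39.1 FPKM in control, log2 count ratio -1.26) and also the longest exon sequence of all genes, 69810 bases. Dys, the dystrophin gene, followed at -0.56, and crb, which encodes an apical membrane protein, was also lower, at -0.50, and was named after its values were seen. The highest ratios were those of hts, the adducin gene, with 139.9 FPKM in knockdown and 139.6 FPKM in control, and of Moe, the moesin gene, at -0.01. Nrg, the L1-type adhesion protein that binds ankyrin, stood at 87.6 FPKM in knockdown and 105 FPKM in control (log2 count ratio -0.27) and was named after its values were seen as well. Of these 14 genes, 10 lay in the longest decile, and the 3 lower genes were among them, beside shares of 14.2% over all genes and 48.2% in that decile.

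Several of these genes, shot, kst and Msp300 among them, are also used in muscle and epithelia, and markers of several tissues outside the CNS were lower as well. All 8 muscle markers listed were lower, with summed FPKM of 395 in the knockdown group and 696 in the control group and log2 count ratios from -1.65 to -0.42. For the 7 markers of epidermis and trachea the summed FPKM was 213 in the knockdown group and 287 in the control group, with 2 lower genes of 6 past the minimum level. Fat body markers were lower for 3 of 3, with summed FPKM of 105 in the knockdown group and 269 in the control group. Salivary gland markers were lower for 5 of 5, at 20.1 in the knockdown group and 465 in the control group, and Sgs5 was listed at 0 in the knockdown group. Among CNS lists, 4 of 9 neuronal markers were lower, with summed FPKM of 570 in the knockdown group and 700 in the control group. All 4 lay in the longest decile by exon length, which held 7 of the 9 and in which 48.2% of all genes were lower. Glial markers summed to 619 FPKM in the knockdown group and 622 FPKM in the control group, with 1 of 7 lower, and neuroblast markers to 312 FPKM in the knockdown group and 306 FPKM in the control group, with 1 of 6 lower and 1 higher. Of 5 imaginal disc markers, none was lower or higher. The part of these tissues in the lower values of shot and kst was not tested.

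**Figure D5:**
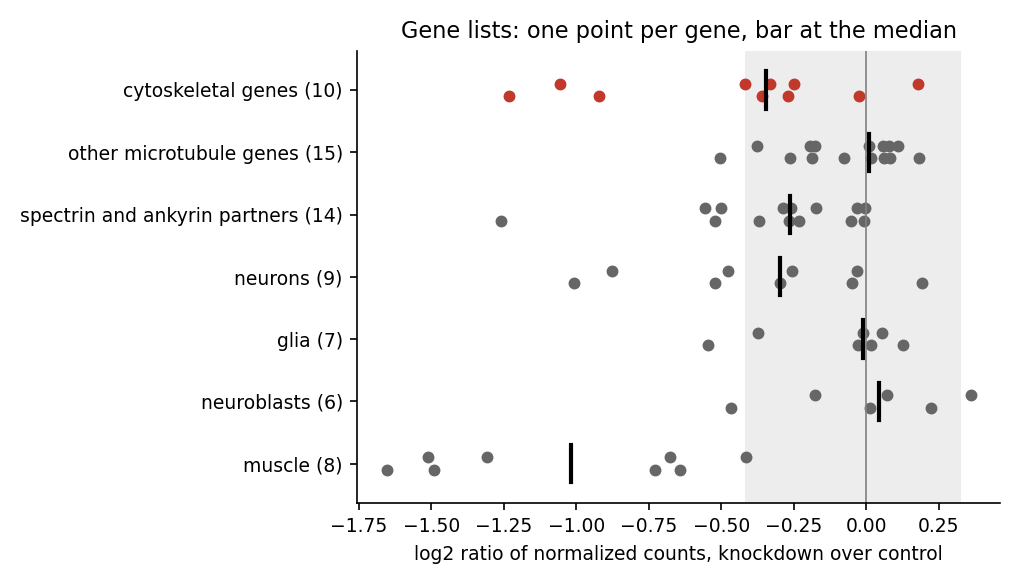
Log2 ratio of normalized counts, knockdown over control (x axis), with 1 point per gene and a bar at each list's median. The gray zone marks a change of under 25%. The 10 cytoskeletal genes have a median of -0.35, other microtubule genes 0.01, spectrin and ankyrin partners -0.26, neurons -0.30, glia -0.01, neuroblasts 0.04 and muscle -1.02.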

How the data were processed

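RNA-seq libraries of larval CNS (2 IP3R knockdown, 3 control, grouped by the sample labels) were processed by the authors, who aligned reads to dm6 with TopHat2 2.0.11, removed duplicate reads with Samtools and compared groups with Cuffdiff 2.2.0, with DESeq and edgeR, whose versions the submitters' notes do not give. The deposited CuffDiff table gives FPKM per gene and group. The DESeq table that the authors deposited gives a signal, the mean of read counts divided by size factors. Its group columns are not named. The mean over all libraries equals 0.6 of column A plus 0.4 of column B for every gene (largest relative deviation 2.5e-09), so A is the mean of 3 libraries, the control group, and B of 2, the knockdown group. Fold changes, p-values and q-values in these tables, and the whole edgeR table, are the authors' own comparisons and were not used. Columns with a value per library numbered 0.

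Tables were joined by symbol (16463 genes). Dates stood in place of 51 symbols in the deposited count table, none of them among the genes described. Ratios were taken between group values, without a pseudocount, for the 10968 genes with values above 0 in both groups and means of at least 1 FPKM and 10 normalized counts. Exon length and places came from the Ensembl release 115 annotation in dm6 coordinates, which held 98.9% of these genes, by current symbol or a synonym. Genes were ranked by exon length into 10 and 50 equal bins. All 10 members and the 2 lowest and 2 highest of each related list were to be named. The members, lists and rules were chosen with earlier results of these data known. The ratio and fold rule were tested on simulated group means with counting noise only. The simulation held no further spread between libraries and no length trend, so it does not cover these. Calculations were run in Python 3.11.15 (pandas 2.3.3, SciPy 1.17.1, NumPy 2.4.6) and plots drawn with matplotlib 3.10.9.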

Additional observations from a re-analysis of the deposited data

How the results depend on the processing

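Of the 10 genes, 3 (futsch, kst and shot) were lower under the settings tried, and any centring by length there used deciles only. The exceptions were a 2-fold rule, which left futsch and kst (2 genes), and counts alone, which added Ank2 (4 genes). None of the 10 was higher unless ratios were centred by length. Centred on the median of their decile of exon length, tau and Ank were higher (2 genes, beside 9.83% of all genes), with log2 ratios of 0.40 and 0.61. The sign of 6 of the 10 log2 count ratios then turned from negative to positive: tau, Map205 (0.16), chb (0.10), alpha-Spec (0.07), beta-Spec (0.18) and Ank2 (0.011). The median of the 10 genes turned to 0.08, and only futsch, kst and shot stayed negative. Relative to the median of their fiftieth of exon length (-0.65), the log2 count ratios of futsch, kst and shot were -0.58, -0.41 and -0.27. By counts, kst and shot thus lay within 25% of that median, and futsch lay further below it. Centred on deciles of apparent length, chosen after seeing the data, 1 gene (Ank) was higher, at 0.56, beside 10.5% of all genes. The signs of chb, alpha-Spec and beta-Spec turned positive (0.05, 0.02 and 0.13), Ank2 stood at -0.04 and the median at -0.06. Of all genes, 5.52% were higher at 1.5-fold, and at 2-fold 4.96% were lower and 2.13% higher. No paired analysis was possible because the columns hold group means only, and for the same reason no replicate could be left out. The study gives ranges of reads per sample before and after duplicate removal, but not the depth of each library. No interval was given.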
